A study of Rattus norvegicus with 9 samples.

Results

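Aggrecan, versican and the genes that bind them to hyaluronan were followed as a set of 8 of the 17602 rat genes in the table. The set was chosen by name and function, with no expression value in the rule but with earlier results of these data known. It holds the core proteins Acan and Vcan, the link proteins Hapln1 and Hapln3, the hyaluronan synthases Has1, Has2 and Has3, and the hyaluronan receptor Cd44. All 8 genes were above 0 TPM in every library and all 8 were among the 16512 genes tested.

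Hyaluronan is a long unsulfated sugar chain that synthases in the plasma membrane extrude into the matrix. Aggrecan and versican are large chondroitin sulfate proteoglycans of the hyalectan family, whose globular head binds hyaluronan, and a link protein locks the head and the chain together. Aggrecan aggregates hold the water that lets cartilage and the inner meniscus resist compression, whereas versican and hyaluronan are typical of the loose matrix of healing and developing tissue. CD44 ties hyaluronan to the cell surface and takes it up.

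RNA sequencing compared 3 groups of knee tissue from wild-type male Lewis rats, 10 to 12 weeks of age, with 3 libraries in each. Intact libraries came from synovium beside the medial meniscus of knees without surgery. Sham libraries came from the same synovium 1 week after sham surgery, and pMx libraries from the regenerating tissue 1 week after partial meniscectomy, with the synovium around it removed. The pMx and sham groups therefore differed in both the operation and the tissue sampled, and these cannot be told apart. The labels call the libraries biological replicates, but whether they came from separate rats is not given in the sources used here, so the p-values measure the spread between these libraries. Fewer cells of a type and less RNA per cell cannot be told apart in such bulk tissue.

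Levels are in TPM, a transcript level scaled by length and to a fixed library total, from which the number of reads per library cannot be read. The lowest correlation of log2(TPM + 1) within a group was 0.959, and the highest between groups was 0.990. Intact replicate 3 stood apart by its skeletal muscle genes, whose 10 markers summed to 46558 TPM against 80.6 to 3289 TPM in the other 8 libraries. Adipocyte markers set pMx apart. By adjusted p below 0.05 in limma, 7 of 7 fell from sham to pMx, where 18.9% of all tested genes did, and their summed level was 3508 to 8944 TPM in intact, 5605 to 6610 TPM in sham and 370 to 625 TPM in pMx, so that intact and sham overlapped. The RNA integrity that the study recorded also rose from intact to sham to pMx, so RNA quality and group cannot be told apart. The part of either in the results that follow was not tested.

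The promoters of both core proteins, of Hapln1 and of Has1 are shown because these genes were called DEGs in at least 1 comparison and have an entry in the promoter table. They are given from RefSeq on GRCr8, 250 bases before to 50 bases after the start, while the submitters' processing notes name mRatBN7.2. Capitals mark the GC box (GGGCGG), the TATA box with letters TATAAA, the AP-1 site with letters TGANTCA or the SOX core with letters ACAAAG on either strand. Of the 33469 promoters in the table, 33.1% held the GC box, 14.2% the TATA box, 7.33% the AP-1 site and 18.8% the SOX core. Vcan has 2 listed starts, of which the first is shown, and Hapln3, Has2 and Has3 have no entry. The sequences are those of Acan (chr1:142390701-142391000, plus strand), Vcan (chr2:22595906-22596205, minus strand), Hapln1 (chr2:22366717-22367016, plus strand) and Has1 (chr1:67378395-67378694, minus strand).
Acan: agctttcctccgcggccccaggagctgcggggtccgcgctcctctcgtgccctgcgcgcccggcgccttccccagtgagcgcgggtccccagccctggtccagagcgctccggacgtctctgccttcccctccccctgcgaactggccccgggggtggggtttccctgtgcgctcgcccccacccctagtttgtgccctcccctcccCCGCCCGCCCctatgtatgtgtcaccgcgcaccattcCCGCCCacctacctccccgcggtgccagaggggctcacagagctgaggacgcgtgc
Vcan: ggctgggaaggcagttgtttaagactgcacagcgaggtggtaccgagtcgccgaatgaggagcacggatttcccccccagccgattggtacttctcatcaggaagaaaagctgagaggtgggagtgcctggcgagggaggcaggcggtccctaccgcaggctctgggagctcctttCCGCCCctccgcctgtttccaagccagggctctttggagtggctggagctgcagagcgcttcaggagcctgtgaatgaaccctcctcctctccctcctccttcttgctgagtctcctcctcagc
Hapln1: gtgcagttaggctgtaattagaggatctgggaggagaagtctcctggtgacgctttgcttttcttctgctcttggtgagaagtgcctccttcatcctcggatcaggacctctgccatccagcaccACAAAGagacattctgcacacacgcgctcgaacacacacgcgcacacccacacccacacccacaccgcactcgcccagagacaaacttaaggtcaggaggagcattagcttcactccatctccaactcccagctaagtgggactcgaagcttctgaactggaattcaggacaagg
Has1: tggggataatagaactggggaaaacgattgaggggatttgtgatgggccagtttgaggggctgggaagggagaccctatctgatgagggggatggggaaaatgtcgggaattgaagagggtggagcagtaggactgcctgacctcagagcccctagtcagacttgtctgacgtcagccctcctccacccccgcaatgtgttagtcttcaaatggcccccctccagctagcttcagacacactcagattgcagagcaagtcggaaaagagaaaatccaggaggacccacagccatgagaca

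The Acan promoter was 73.0% G and C, above the upper quartile of 60.3% for all promoters in the table. It held 3 GC boxes on the opposite strand, of which the first 2 overlap by 2 bases and run from position -43 to -34, and the third runs from -6 to -1. The Vcan promoter, at 61.0% G and C, held 1 GC box at position -74. The Hapln1 promoter, at 53.7%, held a SOX core at -125. In the Has1 promoter, at 54.0%, and the Cd44 promoter, at 60.3%, none of these letters was found. A match describes the letters only. In the same assembly Acan lies next to Hapln3 on chromosome 1 and Vcan next to Hapln1 on chromosome 2, with no other protein-coding gene between the members of either pair.

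The 8 genes changed places by level between the groups. In intact synovium the order of the mean TPM was Cd44, Has1, Vcan, Has2, Has3, Hapln1, Hapln3 and Acan. The values of the first 4 did not overlap with those of their neighbours in this order, whereas Has3, Hapln1, Hapln3 and Acan each overlapped with the next to them. In the regenerating tissue the order was Acan, Cd44, Vcan, Has1, Has2, Hapln1, Hapln3 and Has3. Acan thus stood last among the 8 in intact synovium and first in pMx, and by its mean it went from rank 13198 to rank 5591 in sham and rank 671 in pMx among the 17602 genes. In pMx the only neighbours whose values overlapped were Hapln1 and Hapln3.

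**Figure D1:**
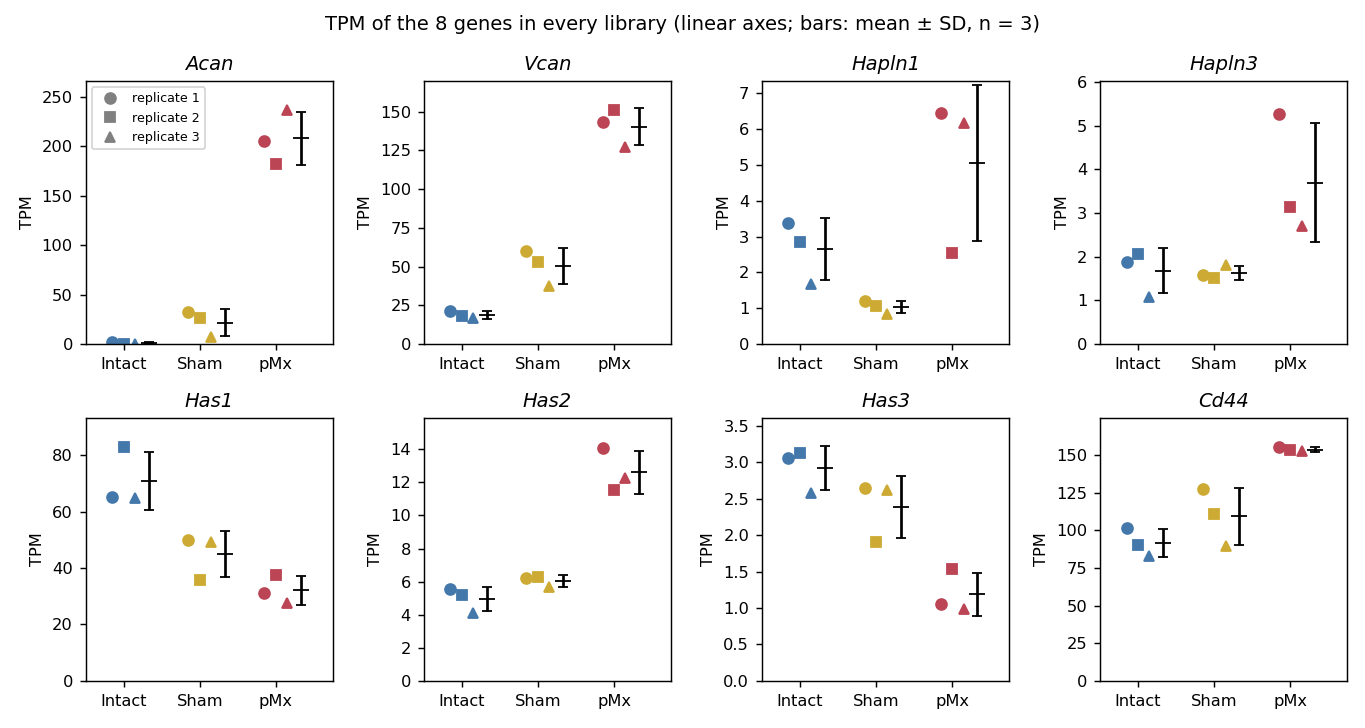
TPM of the 8 genes in each library of the intact, sham and pMx groups on linear axes that differ between genes, where points are libraries and the bars beside them are the mean ± SD of 3 libraries. Acan ran from 0.25 to 2.01 TPM in intact synovium and from 182 to 236 TPM in pMx, while Has1 ran the other way.

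Regenerating tissue was compared with sham synovium, from which it differed in both the operation and the tissue sampled. With limma on log2(TPM + 1), genes with a Benjamini-Hochberg adjusted p below 0.05 were taken to have changed, and those that also moved by more than 1 on the log2 scale were called DEGs, the thresholds that the study's methods give. Acan, Vcan and Hapln1 were DEGs, all higher in pMx, so 3 of 8 genes were called higher where 3.36% of all tested genes were. None was a DEG and lower, where 4.85% of all tested genes were, although 2 of 8, Has1 and Has3, were lower at an unadjusted p below 0.05 in limma, as were 23.5% of all tested genes. By adjusted p alone 6 of 8 rose, where 17.7% of all tested genes did, and 1 of 8, Has3, fell, where 18.9% did. The libraries of pMx lay above all sham libraries for 6 of 8 genes, as for 27.0% of all tested genes, and below them for 1 of 8, as for 29.0%. The median log2 fold change was 0.87 over the 8 genes and -0.01 over all tested genes.

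The sham and intact groups were compared to ask what surgery alone does. Acan and Vcan were DEGs and higher in sham, so 2 of 8 genes were called higher where 1.42% of all tested genes were. By adjusted p alone Has1 also fell, which makes 1 of 8 where 5.97% of all tested genes fell, and the 2 that rose stand against 6.73%. None was a DEG and lower, where 0.533% of all tested genes were, and 2 of 8, Has1 and Hapln1, were lower at an unadjusted p below 0.05 in limma, as were 15.0% of all tested genes. Sham lay above intact without overlap for 3 of 8 genes, as for 14.2% of all tested genes, and below it for 2 of 8, as for 16.4%. The median log2 fold change was 0.12 over the 8 genes and -0.02 over all tested genes. Both comparisons use the same sham libraries, so a high or low sham library moves them in opposite directions.

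Between pMx and intact, Acan, Vcan and Has2 were DEGs and higher, which makes 3 of 8 where 6.40% of all tested genes were called higher, and Has1 was a DEG and lower, which makes 1 of 8 where 7.89% were. By adjusted p alone 5 of 8 rose where 23.4% of all tested genes did and 2 of 8 fell where 27.1% did. The groups did not overlap for 5 of 8 higher genes, as for 26.9% of all tested genes, and for 2 of 8 lower genes, as for 30.6%. Hapln1 alone of the 8 had an adjusted p above 0.05 here.

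**Figure D2:**
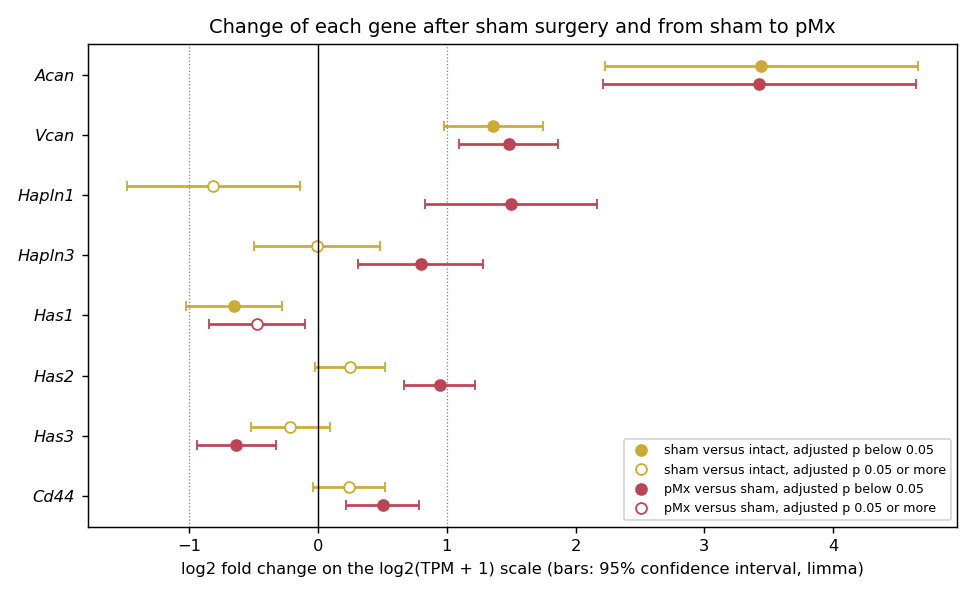
Log2 fold changes of the 8 genes on the log2(TPM + 1) scale with their 95% confidence intervals from limma, for sham versus intact and pMx versus sham, where filled points have an adjusted p below 0.05 and dotted lines stand at -1 and 1. Acan and Vcan lay above 1 in both comparisons, and Hapln1 lay at -0.81 in sham versus intact and 1.50 in pMx versus sham.

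Acan (gene 58968) encodes the core protein of aggrecan, the main proteoglycan of cartilage. Its level was 2.01, 0.49 and 0.25 TPM in the 3 intact libraries, 32.52, 26.38 and 6.84 TPM in the sham libraries, and 205, 182 and 236 TPM in the pMx libraries. No library of a group overlapped with another group, and sham replicate 3 lay well under the other sham libraries. The group means were 0.917 ± 0.954, 21.9 ± 13.4 and 208 ± 27.0 TPM (SD, n = 3 each), so that the mean was 9.48-fold higher in pMx than in sham and 23.9-fold higher in sham than in intact. The last value rested on intact replicate 1, without which the intact mean was 0.370 TPM and the fold 59.2.

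On the log2(TPM + 1) scale, which understates the change of low genes, Acan rose by 3.43 from sham to pMx (SE 0.53; adjusted p = 0.00136, limma) and by 3.44 from intact to sham (SE 0.53; adjusted p = 0.00787, limma). Without sham replicate 3 the first value was 2.78 (adjusted p = 0.00123, limma) and the second 4.09 (adjusted p = 0.00163, limma). Without intact replicate 3, the library with the muscle genes, the rise from intact to sham was 3.19 (adjusted p = 0.0119, limma).

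Cartilage markers were read beside Acan. Of 8 cartilage markers analysed, 1 rose from sham to pMx (Matn3, a cartilage matrilin) and 2 fell (Col9a1 and Cnmd), where 17.7% and 18.9% of all tested genes did. Their summed level was 261 to 670 TPM in intact, 478 to 572 TPM in sham and 794 to 944 TPM in pMx, nearly all of it Comp. Col2a1, the collagen that defines cartilage, was at 0.56 to 0.89 TPM in pMx and 0.14 to 2.26 TPM in sham. Snorc and Col9a1, both cartilage genes, were below 1 TPM in every library, and Cnmd, the chondrocyte gene for chondromodulin, was listed at 0 in all 3 pMx libraries. In intact replicate 1, which had the highest Acan of the intact group, Col2a1 stood at 16.1 TPM against 0.24 and 0.29 TPM in the other intact libraries. The other 4 markers had higher means in pMx than in sham, at 4.23 against 1.77 TPM for Matn3, 2.79 against 1.81 TPM for Col11a2, 2.13 against 1.72 TPM for Col9a3 and 840 against 512 TPM for Comp. The adjusted p was 0.395 for Col11a2, 0.653 for Col9a3 and 0.0865 for Comp (limma), and the part of cartilage in the Acan result was not tested.

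Vcan (gene 114122) encodes the core protein of versican. Its level was 21.5, 18.2 and 16.7 TPM in intact, 60.4, 53.3 and 37.8 TPM in sham and 143, 151 and 127 TPM in pMx. The groups did not overlap, and sham replicate 3 was again the lowest of its group. The means were 18.8 ± 2.46, 50.5 ± 11.6 and 140.5 ± 12.1 TPM (SD, n = 3 each), 2.69-fold higher in sham than in intact and 2.78-fold higher in pMx than in sham. Vcan rose by 1.36 on the log2 scale from intact to sham (SE 0.17; adjusted p = 0.00441, limma) and by 1.48 from sham to pMx (SE 0.17; adjusted p = 2.79e-04, limma).

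The balance between the core proteins moved from versican to aggrecan. The Acan level was 4.22 ± 3.80% of the sum of Acan and Vcan in intact synovium, 27.8 ± 10.8% in sham and 59.5 ± 5.17% in pMx (SD, n = 3 each). In the single libraries the ratio of Acan to Vcan was 0.0150 to 0.0935 in intact, 0.181 to 0.538 in sham and 1.21 to 1.86 in pMx, so Acan exceeded Vcan in all 3 pMx libraries and in no other. The log2 ratio differed between the groups in an exact two-sided permutation test over all ways to split the 9 libraries into 3 groups of 3 (p = 0.00357, the smallest it can give; adjusted over 4 ratios, 0.00476). Between any 2 groups of 3 such a test cannot go below 0.10, and the ratios were chosen with earlier results of these data known.

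**Figure D3:**
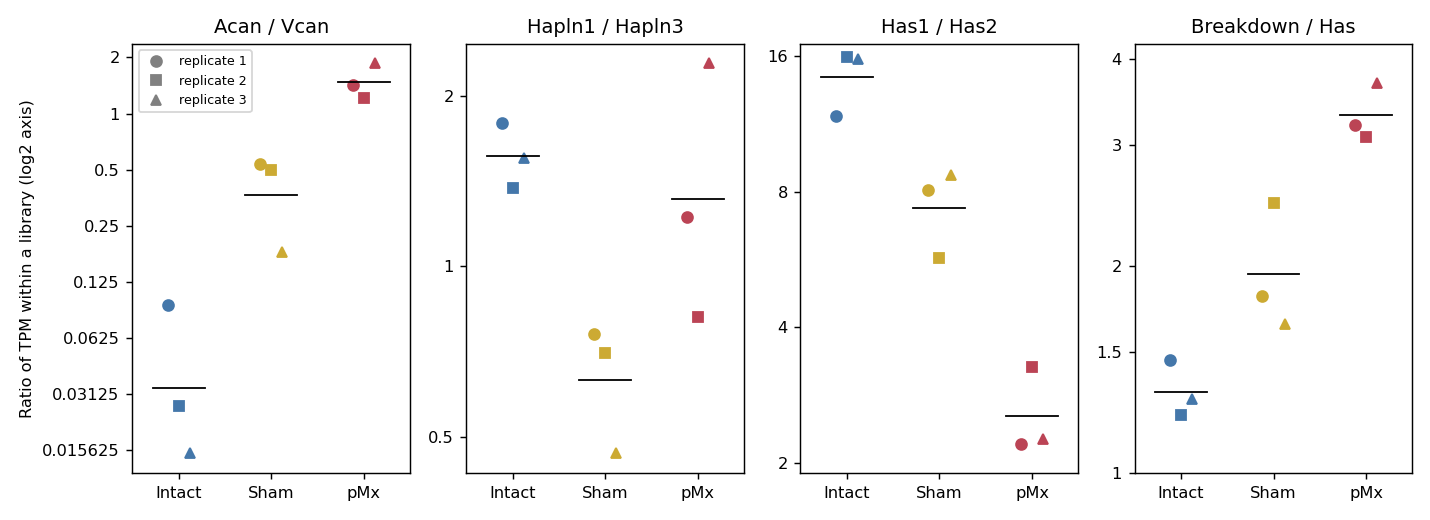
Ratios of TPM within each library on log2 axes for the 3 groups, where points are libraries and bars are means of the log2 ratios: Acan to Vcan, Hapln1 to Hapln3, Has1 to Has2, and hyaluronan-degrading genes to synthases. The Acan to Vcan ratio was above 1 in the 3 pMx libraries alone, and the Has1 to Has2 ratio fell from 11.8 or more in intact to 3.27 or less in pMx.

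In sham and pMx every link protein value was below every core protein value of its group, whereas in intact synovium both link proteins had higher means than Acan. Hapln1 (gene 29331) encodes the link protein of cartilage. Its level was 3.38, 2.85 and 1.69 TPM in intact, 1.20, 1.06 and 0.85 TPM in sham and 6.43, 2.55 and 6.16 TPM in pMx. All sham libraries lay below all the others, and pMx replicate 2 lay within the intact range. The means were 2.64 ± 0.864, 1.04 ± 0.176 and 5.05 ± 2.17 TPM (SD, n = 3 each).

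Hapln1 rose by 1.50 on the log2 scale from sham to pMx (SE 0.29; adjusted p = 0.00438, limma), with a mean 4.87-fold higher. The difference between sham and intact was -0.81 (95% interval -1.48 to -0.14; adjusted p = 0.107, limma), although the groups did not overlap. Between pMx and intact it was 0.69 (95% interval 0.02 to 1.35; adjusted p = 0.0819, limma). Without pMx replicate 2 the last 2 differences passed, at adjusted p = 0.0378 and 0.00502 (limma), with the pMx value at 1.03. Hapln1 thus rested on that library in its comparison with intact synovium.

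Hapln3 (gene 308773) encodes a link protein found outside cartilage as well. It was at 1.89, 2.07 and 1.09 TPM in intact, 1.58, 1.51 and 1.82 TPM in sham and 5.26, 3.13 and 2.70 TPM in pMx. Every pMx library lay above every other library, while intact and sham overlapped. Hapln3 rose by 0.80 from sham to pMx on the log2 scale (SE 0.21, adjusted p = 0.0189, limma). The adjusted p was above 0.05 without sham replicate 1 (adjusted p = 0.0552, limma) or sham replicate 2 (adjusted p = 0.0553, limma). Between sham and intact it differed by -0.01 (95% interval -0.49 to 0.48; adjusted p = 0.990, limma).

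Hapln1 was 61.0 ± 3.11% of the summed link protein level in intact, 38.7 ± 6.06% in sham and 56.5 ± 12.4% in pMx (SD, n = 3 each). Sham was the only group in which Hapln3 exceeded Hapln1 in all 3 libraries. The exact permutation test of the log2 ratio between the 3 groups gave p = 0.0464 (adjusted over the 4 ratios 0.0464), and 7 of the 9 fits without 1 library did not pass, with adjusted p up to 0.146. The summed TPM of the core proteins divided by that of the link proteins was 4.78 ± 1.18 in intact, 27.1 ± 9.05 in sham and 43.1 ± 14.5 in pMx (SD, n = 3 each). In single libraries that ratio was 3.79 to 6.09 in intact, 16.7 to 33.4 in sham and 29.8 to 58.7 in pMx, so sham and pMx overlapped. The genome neighbours therefore differed in level, with Acan and Hapln3 at 208 and 3.70 TPM and Vcan and Hapln1 at 140.5 and 5.05 TPM in pMx.

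Among the synthases Has1 and Has2 moved in opposite directions. Has1 (gene 282821), the most abundant synthase transcript in all 9 libraries, was at 65.3, 82.9 and 64.9 TPM in intact, 50.01, 35.8 and 49.2 TPM in sham and 31.0, 37.6 and 27.7 TPM in pMx. Intact lay above both other groups, and sham replicate 2 lay below pMx replicate 2. The means were 71.0 ± 10.3, 45.0 ± 8.0 and 32.1 ± 5.05 TPM (SD, n = 3 each).

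Has1 fell by 1.12 on the log2 scale from intact to pMx (SE 0.16; adjusted p = 5.37e-04, limma), with a mean 2.21-fold lower. From intact to sham it fell by 0.65 (SE 0.16; adjusted p = 0.0360, limma). The adjusted p of this fall ran from 0.0277 to 0.106 over 19 alternative fits (limma) and was above 0.05 in 8 of them. With the replicate number as a block it was 0.0753 (limma). Leaving out intact replicate 1 or 2, any of the sham replicates or pMx replicate 1 was enough to raise it above 0.05. It was highest without sham replicate 2. From sham to pMx the difference was -0.47 (95% interval -0.84 to -0.10; adjusted p = 0.0524, limma), and 9 of the 19 alternative fits passed, over a range of 0.0167 to 0.159. Prg4, the lubricin gene of the synovial lining, fell from 2646 ± 478 TPM in intact to 1315 ± 118 TPM in sham (SD, n = 3 each; a mean 2.01-fold lower, adjusted p = 0.0170, limma) and was at 1453 ± 335 TPM in pMx. Prg4 was the only 1 of 8 synovial fibroblast markers to fall from intact to sham by adjusted p, while 5 rose. Of all tested genes, 5.97% fell and 6.73% rose. The part of Prg4 in the Has1 result was not tested.

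Has2 (gene 25694), the synthase best known for hyaluronan in development and wound repair, was at 5.54, 5.22 and 4.12 TPM in intact, 6.20, 6.29 and 5.65 TPM in sham and 14.1, 11.5 and 12.2 TPM in pMx. The 3 groups did not overlap. Has2 rose by 0.95 on the log2 scale from sham to pMx (SE 0.12; adjusted p = 4.98e-04, limma), with the mean going from 6.05 ± 0.346 to 12.6 ± 1.31 TPM (SD, n = 3 each), 2.08-fold higher. It was just short of the DEG threshold of 1, which it passed with smaller pseudocounts (1.04 and 1.05). Between sham and intact the difference was 0.25 (95% interval -0.03 to 0.52; adjusted p = 0.215, limma).

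Has3 (gene 266805), which encodes the third synthase, was at 3.06, 3.12 and 2.58 TPM in intact, 2.65, 1.90 and 2.62 TPM in sham and 1.05, 1.53 and 0.98 TPM in pMx. All pMx libraries were below all others, and intact and sham overlapped. Has3 fell by 0.63 on the log2 scale from sham to pMx (SE 0.13; adjusted p = 0.00664, limma), a mean 2.01-fold lower. From intact to sham the difference was -0.21 (95% interval -0.52 to 0.09; adjusted p = 0.339, limma).

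As a share of the summed synthase level, Has1 made up 90.0 ± 1.39% in intact, 84.0 ± 2.28% in sham and 69.7 ± 3.92% in pMx, and Has2 6.33 ± 1.02%, 11.6 ± 2.41% and 27.7 ± 4.32% (SD, n = 3 each). Has1 nevertheless stayed above Has2 in every library, at 11.8 to 15.9 times in intact, 5.69 to 8.71 times in sham and 2.21 to 3.27 times in pMx. The log2 ratio of Has1 to Has2 differed between the groups (exact permutation test, p = 0.00357; adjusted over the 4 ratios, 0.00476), and these ranges did not overlap. The summed level of the 3 synthases was 78.9 ± 10.7 TPM in intact, 53.4 ± 8.23 TPM in sham and 45.9 ± 4.87 TPM in pMx (SD, n = 3 each), and sham and pMx overlapped.

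**Figure D4:**
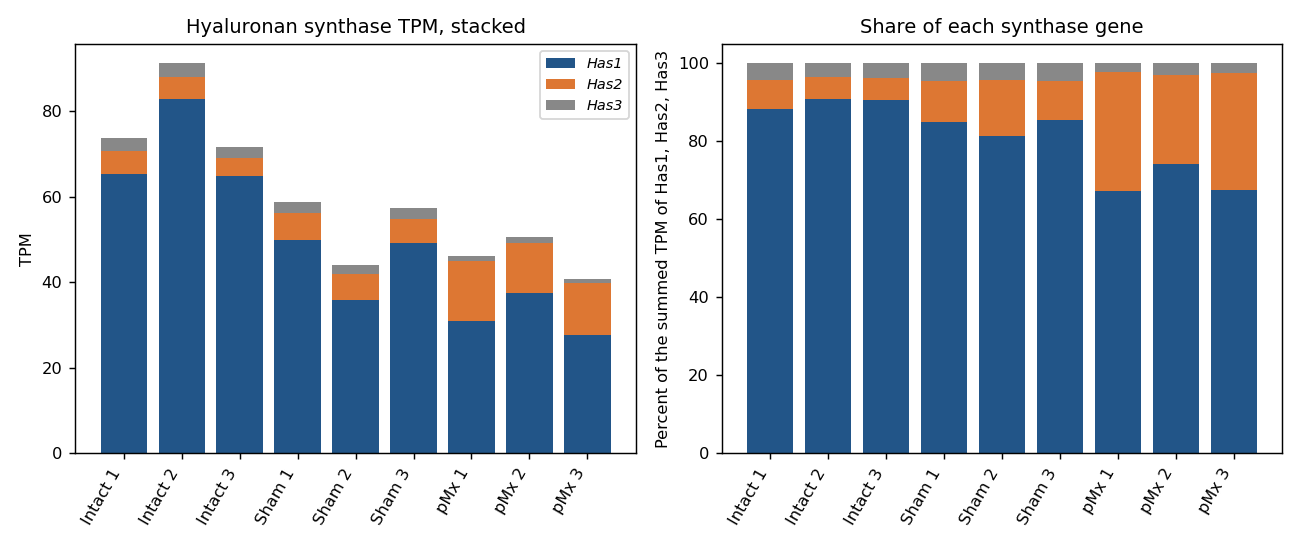
Stacked bars from 0 for each of the 9 libraries, with the TPM of Has1, Has2 and Has3 in the left panel and each as a percentage of their sum in the right panel. The Has2 part was 5.72 to 7.50% in intact, 9.83 to 14.3% in sham and 22.7 to 30.5% in pMx.

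Cd44 (gene 25406), the main surface receptor of hyaluronan, was high in all groups. Its level was 101.7, 90.4 and 82.9 TPM in intact, 127.7, 110.5 and 89.5 TPM in sham and 155.2, 153.1 and 152.4 TPM in pMx. The pMx libraries were nearly alike and above all others, and sham and intact overlapped. Cd44 rose by 0.50 on the log2 scale from sham to pMx (SE 0.12; adjusted p = 0.0131, limma), a mean 1.41-fold higher. From intact to sham the difference was 0.24 (95% interval -0.04 to 0.52; adjusted p = 0.242, limma).

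CD44 is also carried by leukocytes, so their markers were read beside it. Of 10 macrophage and leukocyte markers, 6 rose from intact to sham (limma, adjusted p below 0.05), where 6.73% of all tested genes did. From sham to pMx 1 rose and 3 fell, where 17.7% and 18.9% of all tested genes did. Their summed level was 880 to 1397 TPM in intact, 1499 to 1563 TPM in sham and 1033 to 1439 TPM in pMx. C1qa and C1qb were the largest parts of this sum, at 659 and 454 TPM in sham and 522 and 291 TPM in pMx. Cd68, Itgam and Ptprc had higher means in pMx than in sham, and the other markers had lower means. Those of Cd68 were 209 against 150 TPM, of Itgam 32.8 against 24.4 TPM and of Ptprc 34.1 against 29.6 TPM. Synovial fibroblast markers, 8 in all, summed to 10813 to 15469 TPM in intact, 20455 to 23768 TPM in sham and 43757 to 47468 TPM in pMx, and 4 rose and 1 fell from sham to pMx, where 17.7% and 18.9% of all tested genes did. The collagen genes Col1a1 and Col3a1 made up 34.8 to 40.1% of this sum in intact, 58.7 to 63.8% in sham and 72.2 to 74.1% in pMx. Without them the sum was 7052 to 9262 TPM in intact, 8447 to 9213 TPM in sham and 11655 to 12746 TPM in pMx. Besides the collagens, Lum rose from 2180 to 7012 TPM and Thy1 from 326 to 1037 TPM from sham to pMx (adjusted p = 7.08e-05 and 2.31e-04, limma), and Dcn, the decorin gene, fell from 4683 to 2441 TPM (adjusted p = 9.94e-04, limma). Pdgfra, Pdpn and Prg4 did not pass (adjusted p = 0.650, 0.0581 and 0.680, limma). The part of these cells in the results for Acan, Vcan and Cd44 was not tested.

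Across the 9 libraries, Pearson's r of log2(TPM + 1) picked the genes most like each of the 8 among 13203 genes with a mean of at least 1 TPM. Ltbp2, which encodes a latent TGF-beta binding protein of the matrix, came first for both core proteins. For Acan it stood at r = 0.995, ahead of Gnb4 and Slc7a6 (both 0.994), and for Vcan at r = 0.998, ahead of Tor2a and Adam12 (both 0.996). Hapln1 was most like Nucks1, Kcnip3 and Ddx39a (r = 0.969, 0.962 and 0.949), and Hapln3 most like Ints6, Dzip3 and Sf3b5 (0.973, 0.965 and 0.957). Has1 was most like Sox5 (0.993), Ptger1 (0.990) and Cdhr5 (0.990), Has2 most like Rftn2 (0.999), Uggt2 (0.996) and Rer1 (0.996), and Has3 most like Grin3a (0.990), Twsg1 (0.989) and Irak2 (0.987). For Cd44 the nearest were LOC100364016 (0.989), Slc30a7 (0.986) and Mogs (0.985). The highest r was lower for either link protein than for any of the other 6 genes. The libraries fall into 3 groups and share them for all genes, so these values describe likeness of pattern and carry no test.

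The other genes of the pathway were taken as 73 genes in 8 lists, of which 68 were tested. From sham to pMx 14 of the 68, or 20.6%, were DEGs, 10 higher and 4 lower, where 8.21% of all tested genes were. Their median log2 fold change was 0.15. By adjusted p alone 36, 17 and 50 of the 68 changed in pMx versus sham, sham versus intact and pMx versus intact, where 36.6%, 12.7% and 50.6% of all tested genes did. From intact to sham 1 was a DEG, or 1.47%, where 1.96% of all tested genes were. That gene was Ptx3, whose product pentraxin 3 helps to cross-link hyaluronan, and it fell by 1.32 on the log2 scale (adjusted p = 0.00690, limma).

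The nearest relatives of the core and link proteins were scarce. Ncan and Bcan, the hyalectans of brain, and Hapln2 and Hapln4, the link proteins of brain, had group means of 1.42 TPM at most. By adjusted p, 1 of these 4 changed from sham to pMx, where 36.6% of all tested genes did. It was Hapln4, which rose from 0.0900 to 0.547 TPM. Bcan (1.09 and 0.607 TPM) and Hapln2 (0.440 and 0.193 TPM) were lower in pMx with no overlap of the libraries and did not pass.

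Among 14 tested receptors and binding proteins, 2 were DEGs and higher in pMx than in sham and 3 were DEGs and lower, where 3.36% and 4.85% of all tested genes were. Tnfaip6, whose product TSG-6 transfers protein heavy chains onto hyaluronan, stood at 36.3, 36.2 and 23.8 TPM in sham and 161, 158 and 143 TPM in pMx, and rose by 2.25 on the log2 scale (SE 0.16; adjusted p = 4.34e-05, limma). Hmmr, a hyaluronan-binding protein that also serves the spindle of dividing cells, rose by 1.31 from 4.64 ± 0.999 to 12.9 ± 1.20 TPM (SD, n = 3 each; adjusted p = 4.00e-04, limma).

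The DEGs of this list that fell were Lyve1 and the heavy chain genes Itih3 and Itih5. Lyve1, the hyaluronan receptor of lymphatic vessels and some resident macrophages, fell by 2.26 from 21.3 ± 4.17 to 3.69 ± 1.03 TPM (SD, n = 3 each; adjusted p = 1.52e-04, limma). Of 6 endothelial markers, 3 fell from sham to pMx by adjusted p (Tek, Vwf and Emcn), where 18.9% of all tested genes did, while Cdh5 (112.9 and 142.1 TPM in sham and pMx) and Kdr (21.2 and 28.7 TPM) were higher in pMx with no overlap but did not pass (adjusted p = 0.108 and 0.0658, limma). The summed level of the 6 was 556 to 589 TPM in sham and 439 to 558 TPM in pMx. None of the 6 is particular to lymphatic vessels, and their part in the Lyve1 result was not tested. Itih3 fell by 2.10 and Itih5, listed as LOC684327, by 1.89. Tnfaip6 and these 2 heavy chain genes thus moved in opposite directions.

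**Figure D5:**
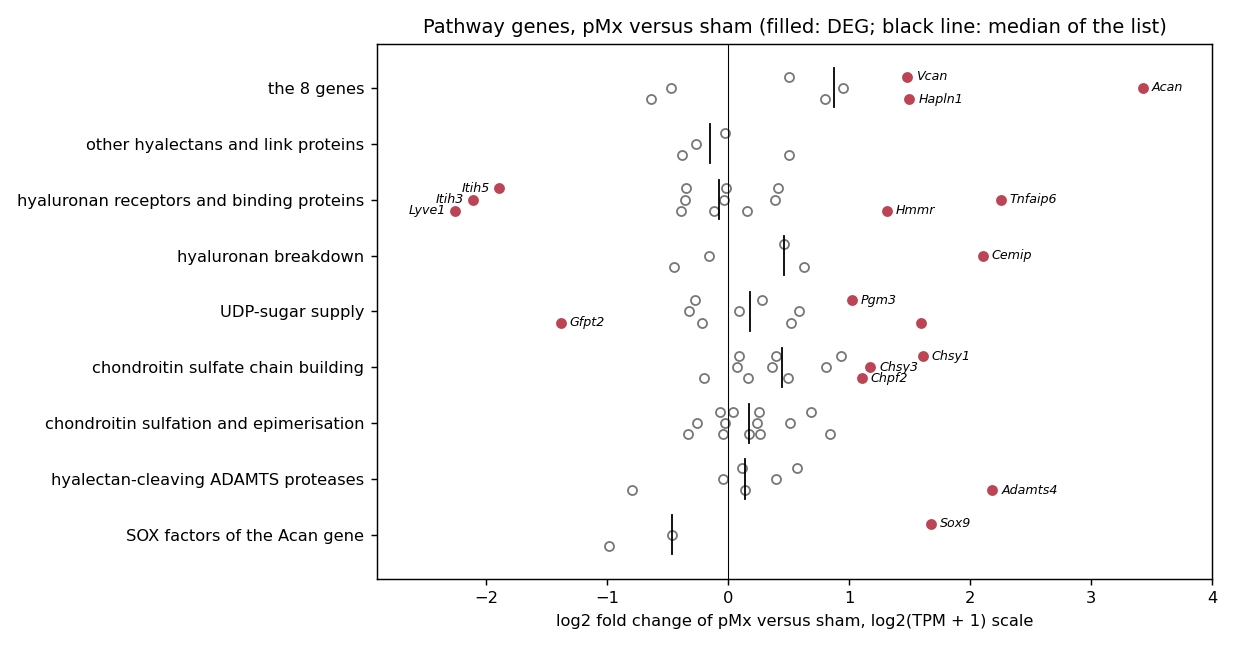
Log2 fold changes of pMx versus sham on the log2(TPM + 1) scale for the 8 genes and the 8 lists of the pathway, where filled points are DEGs, with the names of those given in the text, and vertical marks are the medians of the tested genes of each list. Chain building genes had 3 DEGs, all to the right of 0, with a median of 0.45, and binding proteins had DEGs on both sides.

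The sum of 4 genes of hyaluronan breakdown rose relative to that of the synthases. Cemip, whose product depolymerises hyaluronan at the cell, was at 8.34, 8.17 and 4.39 TPM in sham and 34.1, 35.3 and 27.8 TPM in pMx, and rose by 2.10 on the log2 scale (SE 0.22; adjusted p = 1.91e-04, limma). Hyal2 and Cemip2, which encode surface enzymes, rose by 0.46 and 0.63, and Hyal1, the lysosomal hyaluronidase, fell by 0.45. The sum of these 4 genes divided by the sum of the 3 synthases was 1.32 ± 0.127 in intact, 1.97 ± 0.435 in sham and 3.32 ± 0.324 in pMx (SD, n = 3 each). The fifth breakdown gene tested, Hyal3, was not part of this sum and was at 8.94, 8.22 and 7.25 TPM in intact, sham and pMx, with an adjusted p of 0.444 from sham to pMx (limma). The log2 ratio differed between the groups (exact permutation test, p = 0.00357; adjusted over the 4 ratios, 0.00476), and no group overlapped with another. The numerator was 103 ± 10.2 TPM in intact, 103 ± 7.45 TPM in sham and 151 ± 4.01 TPM in pMx (SD, n = 3 each), so from intact to sham the ratio moved with the synthase sum.

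Of 10 genes of the sugar precursors, 5 rose and 1 fell from sham to pMx by adjusted p, where 17.7% and 18.9% of all tested genes did. Gfpt2, an isoenzyme for the entry step of hexosamine synthesis, was at 341, 195 and 284 TPM in sham and 116, 108 and 83.5 TPM in pMx and fell by 1.38 on the log2 scale (SE 0.20; adjusted p = 0.00105, limma). Its isoenzyme gene Gfpt1 rose by 0.52, from 32.8 ± 2.10 to 47.3 ± 2.88 TPM (SD, n = 3 each; adjusted p = 0.00208, limma). Pgm3, which acts further along, rose by 1.02. From intact to sham, Ugdh, which makes UDP-glucuronate, and Uap1 and Ugp2, which make UDP-sugars, fell by 0.54, 0.75 and 0.58.

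Of 12 genes that build the chondroitin sulfate chain, 8 rose from sham to pMx by adjusted p, where 17.7% of all tested genes rose. The polymerase genes Chsy1, Chsy3 and Chpf2 were DEGs, at log2 fold changes of 1.61, 1.17 and 1.11, and Chsy1 went from 27.6 ± 4.49 to 85.5 ± 2.35 TPM (SD, n = 3 each). Chpf, a partner of these enzymes, rose by 0.81, and B4galt7, which adds the second sugar of the linker, rose by 0.93. Among the 13 genes of sulfation and epimerisation, 4 rose, against the same 17.7%, each by less than 1, with Chst14 at 0.84 and Chst11 at 0.68.

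Of 7 tested proteases that cut the core proteins, 2 rose and 1 fell from sham to pMx by adjusted p, where 17.7% and 18.9% of all tested genes did. Adamts4, an aggrecanase gene, was at 8.34, 7.73 and 4.31 TPM in sham and 31.4, 32.6 and 36.3 TPM in pMx, and rose by 2.18 on the log2 scale (SE 0.23; adjusted p = 1.95e-04, limma). Adamts5, the other main aggrecanase gene, fell by 0.79, from 15.7 ± 2.50 to 8.63 ± 1.37 TPM (SD, n = 3 each; adjusted p = 0.00938, limma). Adamts1 rose by 0.57, and the other 4 did not pass.

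The SOX factors that are known to act on the Acan gene did not move together. Sox9 was at 1.23, 1.06 and 0.55 TPM in sham and 4.55, 5.07 and 5.92 TPM in pMx, and rose by 1.68 on the log2 scale (SE 0.14; adjusted p = 7.92e-05, limma). Sox5 and Sox6, its usual partners in cartilage, fell by 0.47 and 0.98 from sham to pMx and by 0.57 and 0.70 from intact to sham. In intact synovium Sox9 was at 0.68 to 0.71 TPM, and the difference from intact to sham was 0.18 (SE 0.14; adjusted p = 0.446, limma).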

How the data were processed

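Total RNA of 9 libraries was reverse transcribed from oligo dT selected mRNA and sequenced on BGISEQ-500 per the labels. The authors deposited TPM values per gene; the submitters' processing notes name HISAT2 2.0.4 and mRatBN7.2, and the annotation and counting tool are not given in the sources used here. TPM sums to a fixed total per library, so a large rise in some genes lowers others, and it keeps no depth, so precision is the spread of 3 libraries.

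From the deposited TPM, log2(TPM + 1) of 16512 genes above 0 TPM in at least 3 libraries was fitted over all 9 libraries in limma 3.58.1 (R 4.3.3, eBayes with trend), with Benjamini-Hochberg adjustment over all genes tested. The DEG call needed an adjusted p below 0.05 together with a log2 fold change above 1 in either direction. Ratios were formed per library with 0.01 TPM added and tested by exact permutation (SciPy 1.17.1). Figures were drawn in Matplotlib 3.10.9. The fit was tested on simulated data. Gene identifiers were matched to RefSeq GRCr8 for names, neighbours and promoters (17419 of 17602).

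The 8 genes and the lists of pathway and cell type genes were chosen with earlier results of these data known. The genes named are the 8, in each other list up to 4 DEGs of largest change per comparison, list genes that a sentence on the 8 needs, for each of the 8 the 3 most alike genes, and of the markers those highest or near 0. Other markers and other list genes that changed by adjusted p alone were chosen after their values were seen. Alternatives were other pseudocounts, filters, scalings and fits, and leaving out each library. All columns of values were mapped to samples. A list gene that the rule covers is not reported here by name.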

Additional observations from a re-analysis of the deposited data

How the results depend on the processing

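The counts moved mostly with the fold threshold. By adjusted p alone, 6 genes of the set were higher and 1 lower in pMx than in sham, 1 was lower in sham than in intact, and 5 were higher and 2 lower in pMx than in intact; of the pathway genes, 36, 17 and 50 changed in these comparisons, as did 36.6%, 12.7% and 50.6% of all tested genes. With pseudocounts of 0.1 and 0.01, 5 genes of the set were DEGs and higher in pMx than in sham, as Hapln3 (1.07 and 1.11) and Has2 (1.04 and 1.05) passed 1, 2 were lower in pMx than in intact, and 2 pathway genes were DEGs in sham versus intact; with 0.01, 1 gene was lower in pMx than in sham, Has3 (-1.02). The Acan difference between sham and intact was 4.58 and 4.82 with these pseudocounts. Hapln3 in sham versus intact, reported as -0.01, changed sign to 0.0051 and 0.0083 with these pseudocounts and 0.0099 with median-of-ratios rescaling, and ran from -0.18 to 0.10 over fits without 1 library.

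Without 1 library in turn, the set had 3 to 4 DEGs higher in pMx than in sham and 3 to 4 higher in pMx than in intact, and the pathway had 14 to 15, 1 to 3 (3 without sham replicate 3) and 17 to 21 DEGs in pMx versus sham, sham versus intact and pMx versus intact. The Hapln1 to Hapln3 log2 ratio in pMx minus sham ran from 0.66 to 1.40. The deviations of same-numbered libraries correlated at 0.03, 0.37 and 0.48 between pMx and sham and at 0.00, -0.40 and -0.49 between sham and intact. Between pMx and intact they correlated at -0.38, -0.44 and -0.66. Not every library was most like its own number, and with 3 libraries a group these values cannot tell whether the libraries were paired. With the replicate block the set had 3 DEGs higher in pMx than in sham and 2 higher in sham than in intact, as without it, and all tested genes gave 547 higher and 796 lower DEGs in pMx versus sham against 554 and 801. With a pseudocount of 0.1 these were 837 and 1392. The cause of these moves was not tested beyond the arithmetic of the settings. Unknown depth limits what can be read from levels near 1 TPM, which include Acan in intact, Hapln1 in sham, Hapln3, Has3 and Sox9, and so the size of the Acan and Hapln1 folds.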
